A study of Mus musculus with 6 samples.

Results

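The genes examined here encode the bone morphogenetic protein (BMP) pathway. They were measured in cells sorted as tuft cells, the chemosensory cells of the intestinal epithelium. The genes were the ligand gene Bmp4, the receptor genes Bmpr1a, Acvr1 and Bmpr2, the SMAD genes Smad1, Smad5 and Smad4, and the target genes Id1, Id2 and Id3. These 10 genes were taken by name, and all 10 were found among the 23420 genes of the expression table. The table covered 6 libraries that form 1 group, each labelled as a separate mouse replicate. The mice carried Gfi1b-eGFP (heterozygous, Gfi1b-eGFP/+, in the methods) on the C57BL/6J background, so that green fluorescent protein was made from the locus of Gfi1b, a transcription factor gene active in tuft cells, and cells from the ileum were sorted as GFP-positive, EpCam-positive, CD45-negative and free of the dead-cell stain propidium iodide. No treatment was named, age was given only as a range of weeks for all mice of the study, and no GFP-negative epithelium was analysed here, so levels were compared between genes within each library and not between cell types. The reporter marks cells by Gfi1b activity and not by chemosensory function. Levels are in TPM (transcripts per 1000000), a unit in which each gene's reads are first divided by transcript length and every library is then brought to the same total. Read numbers cannot be recovered from TPM, so sequencing depth is unknown here and no detection limit can be put on a value of 0. The methods describe full-length libraries, but the labels also name a 3′ preparation, in which division by length would distort levels between genes of unequal length.

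BMPs are secreted ligands that bring together type I and type II receptor kinases. The type I receptor phosphorylates SMAD1, SMAD5 or SMAD9, which enter the nucleus with SMAD4 and activate targets such as the Id genes. Id proteins lack a DNA-binding region and hold E proteins away from DNA, and in the intestine BMP signaling is known to rise from the crypt toward the villus, where it restrains proliferation.

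Tuft cell genes were abundant in all 6 libraries. Of 14 tuft cell markers, 13 were in the table and all 13 were above 0 in every library, with a summed level of 12130, 10768, 7207, 8655, 7207 and 7192 TPM in replicates 1 to 6. Markers of other epithelial cells were also present. The 8 Paneth cell markers together had 4679 to 33085 TPM (led by Defa24), the 7 goblet cell markers 1053 to 5118 TPM (led by Zg16), the 8 enterocyte markers 7757 to 16298 TPM (led by Fabp1) and the 6 stem cell markers 335.9 to 812.7 TPM (led by Olfm4). All 29 of these genes were above 0 in every library, as were 47.2% of all genes in the table. Of 9 enteroendocrine markers, 3 were above 0 in every library and Pax4 was listed at 0 throughout, with a sum of 379.2 to 535.4 TPM. Most of that sum in every library was Sct, at 330.8 to 473.65 TPM. In sorted cells analysed in bulk, fewer cells of a type and less RNA per cell cannot be told apart, and the cell of origin of each BMP pathway transcript was not tested. The libraries also differed in Gm20594, which took 1.56% to 2.13% of TPM in replicates 1 to 3 and 5.18% to 5.64% in replicates 4 to 6. Rn45s also separated these sets, at 23.1% to 25.1% against 26.7% to 32.6% of TPM, as did the summed Paneth cell markers (8532, 4679 and 5326 against 33085, 19470 and 10227 TPM) and stem cell markers (735.5, 812.7 and 784.7 against 612.8, 470.5 and 335.9 TPM). Results that change sign between these sets of libraries, which no label names as batches, are given within each.

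Transcripts of the Id genes were far more abundant than those of the receptors and SMADs, and Bmp4 was listed at or near 0. In TPM, 9 of the 10 genes were above 0 in every library, against 47.2% of all genes in the table. A mean of at least 10 TPM was reached by 7 of the 10, against 29.8% of all genes, and a mean of at least 100 TPM by 2 of the 10, Id1 and Id3, against 4.5% of all genes. The median of the 10 means was 14.2 TPM, beside 1.24 TPM over all genes.

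**Figure D1:**
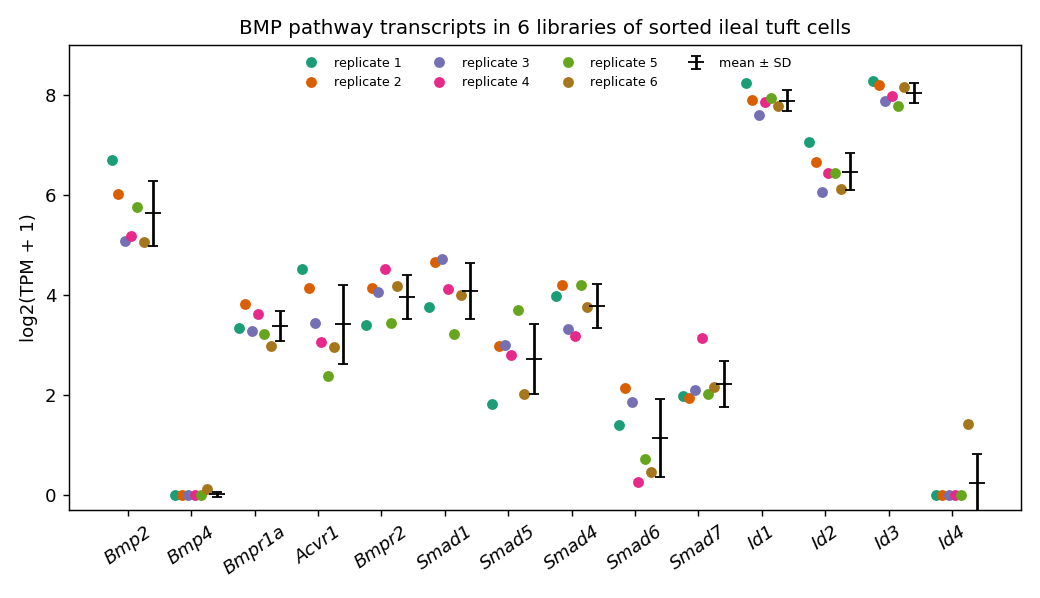
Levels of BMP pathway genes as log2(TPM + 1) on the vertical axis, with 1 colored point for each of the 6 libraries and a black mark and bar for the mean ± SD beside each gene. Id1 and Id3 lay between 193 and 311 TPM in every library, whereas Bmp4 was listed at 0 in 5 of 6 libraries and Bmp2 was at 32.6 to 102.7 TPM.

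Among the ligands, Bmp4 (ENSMUSG00000021835.15; GRCm38 chromosome 14, 46383520 to 46390669, minus strand), a ligand made largely by mesenchyme in the gut, was listed at 0 in replicates 1 to 5 and at 0.09 TPM in replicate 6. Bmp2 (ENSMUSG00000027358.6; chromosome 2, 133552159 to 133562885, plus strand), a closely related ligand from the wider pathway list, was at 102.7, 64.04, 33.1, 35.3, 53.6 and 32.6 TPM in replicates 1 to 6. It was thus above Bmp4 in 6 of 6 libraries, with a mean of 53.6 ± 27.2 TPM (SD, n = 6). Bmp2 made up 55.6% to 91.1% of the summed TPM of the 14 ligand genes on the list. Bmp3, which encodes a BMP family member with antagonist activity, was the only other ligand gene above 0 in every library, at 3.67 to 22.7 TPM. Bmp7 was above 0 in 5 of 6 libraries and reached 8.72 TPM in replicate 5. Of the 14 ligand genes, 7 were listed at 0 in every library, against 32.9% of all genes, namely Bmp5, Bmp10, Bmp15, Gdf2, Gdf5, Gdf6 and Gdf7.

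Markers of stromal, endothelial and blood cells were examined beside Bmp4. Of 8 fibroblast and smooth muscle markers, 2 (Col1a2 and Lum) were listed at 0 in every library, 1 (Pdgfrb) was above 0 in every library, and the list summed to 6.03, 0.87, 1.90, 3.67, 64.5 and 0.75 TPM in replicates 1 to 6. Its most abundant gene by mean was Dcn, at 59.4 TPM in replicate 5 and listed at 0 in the others. Col1a1, Col3a1, Pdgfra and Acta2 were likewise above 0 only in replicate 5, at 1.51 TPM or less. Of 6 endothelial markers, 3 (Cdh5, Kdr and Emcn) were at 0 in every library, and the sum of 5.04 to 22.1 TPM was led by Tek at a mean of 12.9 TPM. Since 32.9% of the whole table was listed at 0 throughout and 47.2% was above 0 throughout, the zeros in these short lists do not show that such cells were missing. Replicate 5, in which the fibroblast list was highest, was listed at 0 for Bmp4. The 7 leukocyte markers summed to 97.2 to 185.9 TPM and were led by Ptprc, the gene of the sorted-against protein CD45, at a mean of 112.3 TPM.

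Both arms of the BMP receptor were present at middling levels. Bmpr1a (ENSMUSG00000021796.15; chromosome 14, 34410734 to 34503341, minus strand), the main epithelial type I receptor for BMP2 and BMP4, was at 9.09, 13.1, 8.73, 11.4, 8.40 and 6.91 TPM in replicates 1 to 6. These values lay at percentiles 41.3 to 53.2 of the genes above 0 in the same library. The libraries lay close together, with a mean of 9.60 ± 2.24 TPM (SD, n = 6) and a range of 1.89-fold.

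Acvr1 (ENSMUSG00000026836.15; chromosome 2, 58388644 to 58567157, minus strand), which encodes the type I receptor ALK2, was at 22.0, 16.6, 9.91, 7.33, 4.19 and 6.84 TPM. Every value in replicates 1 to 3 was above every value in replicates 4 to 6, and the range over all libraries was 5.24-fold. The summed stem cell markers separated these libraries in the same direction and the summed Paneth cell markers in the opposite one. Among the single markers, only Olfm4 of the stem cell list and Defa17, Defa21, Defa22 and Defa24 of the Paneth cell list did so. The part of these cells in the level of Acvr1 was not tested. The mean was 11.1 ± 6.78 TPM (SD, n = 6). Of the remaining type I receptor genes, Bmpr1b was listed at 0 in every library, and Acvrl1, a receptor gene of endothelium, was above 0 in 3 of 6 libraries with a highest value of 5.12 TPM in replicate 2.

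Bmpr2 (ENSMUSG00000067336.6; chromosome 1, 59763400 to 59879014, plus strand), the type II receptor dedicated to BMPs, was at 9.64, 16.7, 15.8, 22.1, 9.88 and 17.1 TPM, with a mean of 15.2 ± 4.76 TPM (SD, n = 6). Replicates 1 and 5 lay below the other 4 libraries. The activin type II receptor genes Acvr2a and Acvr2b, whose products can also bind BMPs, were above 0 in every library at 5.44 to 8.62 and 1.40 to 6.23 TPM. The type II receptors summed to 16.7 to 34.1 TPM and the type I receptors to 12.6 to 34.8 TPM.

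Bmpr2 exceeded Bmpr1a in 6 of 6 libraries, by 1.06 to 2.48 times in TPM (median 1.54). The difference of Bmpr1a minus Bmpr2 was -0.58 ± 0.44 on the log2(TPM + 1) scale (SD, n = 6). When the signs of the 6 differences were permuted in every way, the exact two-sided p was 0.031, which is the lower limit for 6 libraries. After Benjamini-Hochberg adjustment over the 9 comparisons made it was 0.0703 and did not pass 0.05 (exact test). With this lower limit, 6 of the 9 comparisons would have had to reach it for any to pass after adjustment, and 4 did. Bmpr1a and Acvr1 were each the higher gene in 3 of 6 libraries, with a difference of -0.04 ± 0.72 (exact sign-flip p = 0.938, adjusted p = 0.938) that turned positive without replicate 1 (0.19) or replicate 2 (0.02). Bmpr2 exceeded Acvr1 in 5 of 6 libraries, by 0.54 ± 0.96 (exact sign-flip p = 0.219, adjusted p = 0.281). The size of this difference depended on single libraries, at 0.88 without replicate 1 and 0.36 without replicate 4. Both differences from Acvr1 changed sign between the sets of libraries that differ in Gm20594, Rn45s and the summed Paneth and stem cell markers, whose part in the change was not tested. For Bmpr1a minus Acvr1 it went from -0.56 ± 0.55 (replicates 1 to 3) to 0.48 ± 0.43 (replicates 4 to 6), and for Bmpr2 minus Acvr1 from -0.16 ± 0.88 to 1.25 ± 0.21 (SD, n = 3 each). The negative mean of Bmpr2 minus Acvr1 in replicates 1 to 3 rested on replicate 1 (-1.11), as replicates 2 and 3 were at 0.01 and 0.62. The change between sets was not tested, since an exact permutation test of 3 libraries against 3 gives no p below 0.1.

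Smad1 was the leading receptor SMAD in 5 of 6 libraries. Smad1 (ENSMUSG00000031681.16; chromosome 8, 79338395 to 79399518, minus strand) was at 12.7, 24.5, 25.5, 16.5, 8.38 and 15.05 TPM in replicates 1 to 6, and averaged 17.1 ± 6.72 TPM (SD, n = 6). Smad5 (ENSMUSG00000021540.16; chromosome 13, 56703010 to 56742377, plus strand), whose product is phosphorylated by the same receptors, was at 2.54, 6.95, 7.07, 6.03, 11.95 and 3.04 TPM, with a mean of 6.26 ± 3.40 TPM. Replicate 5 held both the lowest Smad1 and the highest Smad5, and was the only library in which Smad5 was the higher of the pair. Smad9, the third receptor SMAD of the pathway, stayed between 0.16 and 1.64 TPM. Smad1 accordingly made up 70.7% to 76.6% of the summed TPM of the receptor SMADs in 5 libraries and 40.9% in replicate 5.

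On the log2(TPM + 1) scale, Smad1 exceeded Smad5 by 1.36 ± 0.93 (SD, n = 6), with the higher value in 5 of 6 libraries (exact sign-flip p = 0.063, adjusted p = 0.113). Without replicate 5 the difference was 1.73. Smad1 and Smad5 are paralogs, and reads that align to both were divided between them by estimated shares.

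Smad4, the common partner of the receptor SMADs, was at 14.8, 17.5, 8.97, 8.10, 17.4 and 12.6 TPM, with a mean of 13.2 ± 4.09 TPM (SD, n = 6). Replicates 3 and 4 were the low libraries. Smad4 exceeded Smad5 in 6 of 6 libraries, by 1.05 ± 0.78 on the log2(TPM + 1) scale (exact sign-flip p = 0.031, adjusted p = 0.0703). Smad4 minus Smad1 was -0.31 ± 0.84, with Smad1 higher in 4 of 6 libraries (exact sign-flip p = 0.375, adjusted p = 0.422). Its size depended on single libraries, at -0.09 without replicate 3 and -0.57 without replicate 5, and on the set, at -0.55 (replicates 1 to 3) or -0.07 (replicates 4 to 6). Neither difference passed 0.05 after adjustment.

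The inhibitory SMADs, which feed back on the pathway, were low. Smad7 was at 2.85 to 3.51 TPM in 5 libraries and at 7.79 TPM in replicate 4. Smad6, which acts mainly on BMP receptors, was at 1.65, 3.43 and 2.63 TPM in replicates 1 to 3. It was lower in each of replicates 4 to 6, at 0.20, 0.64 and 0.38 TPM. Of the 6 genes on the list of SMAD regulators, all 6 were above 0 in every library, against 47.2% of all genes. The highest was Tob1, an antiproliferative gene whose product binds SMADs, at 44.9 ± 7.17 TPM, followed by the phosphatase gene Ppm1a at 14.97 ± 5.59 TPM and the corepressor gene Ski at 13.4 ± 3.16 TPM (SD, n = 6 each).

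**Figure D2:**
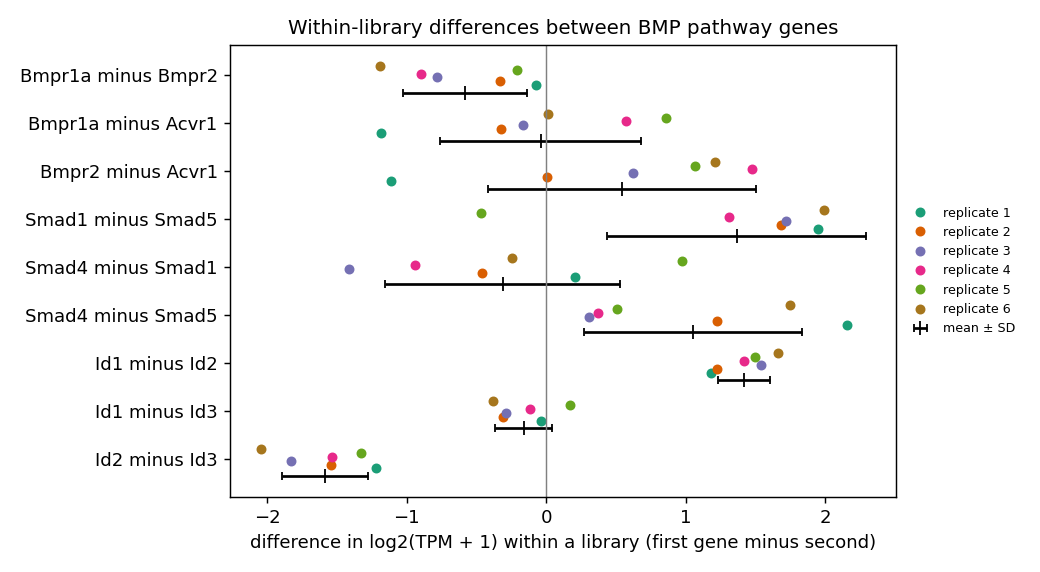
Differences within each library between pairs of receptor, SMAD or Id genes, as the first gene minus the second in log2(TPM + 1) on the horizontal axis, with 1 colored point for each of the 6 libraries and a black mark and bar for the mean ± SD. All 6 points lie on the same side of 0 for 4 pairs, Bmpr1a minus Bmpr2, Smad4 minus Smad5, Id1 minus Id2 and Id2 minus Id3, and replicate 5 stands apart for Smad1 minus Smad5.

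Id3 and Id1 were the most abundant genes of the pathway and Id2 was lower in every library. Id3 (ENSMUSG00000007872.3; chromosome 4, 136143497 to 136145755, plus strand) was at 311.4, 294.9, 236.2, 251.2, 218.3 and 287.4 TPM in replicates 1 to 6. Its mean was 266.6 ± 36.7 TPM (SD, n = 6), at percentiles 96.1 to 97.3 of the genes above 0 in the same library. Replicates 5 and 3 were the low libraries.

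Id1 (ENSMUSG00000042745.9; chromosome 2, 152736251 to 152737410, plus strand), a common transcript readout of BMP signaling, was at 303.0, 237.4, 192.8, 231.2, 245.5 and 220.1 TPM. The mean was 238.3 ± 36.6 TPM (SD, n = 6), and replicate 1 was the highest library and replicate 3 the lowest. The values of Id1 and Id3 overlapped, and Id3 was higher in 5 of 6 libraries. Id1 minus Id3 was -0.16 ± 0.21 on the log2(TPM + 1) scale, a difference smaller than its spread (exact sign-flip p = 0.156, adjusted p = 0.234).

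Id2 (ENSMUSG00000020644.9; chromosome 12, 25093799 to 25097140, minus strand), which is controlled by many signals besides BMP, was at 133.2, 100.8, 65.8, 86.1, 86.2 and 68.7 TPM, with a mean of 90.1 ± 24.7 TPM (SD, n = 6). No value of Id2 reached the lowest value of Id1 or of Id3. Id1 exceeded Id2 by 1.42 ± 0.19 and Id2 minus Id3 was -1.58 ± 0.31 on the log2(TPM + 1) scale, each in the same direction in 6 of 6 libraries (exact sign-flip p = 0.031 and adjusted p = 0.0703 for both). In TPM, Id1 was 2.28 to 3.20 times Id2 and Id3 was 2.34 to 4.18 times Id2 within a library. Id4 was listed at 0 in 5 libraries and at 1.69 TPM in replicate 6.

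Id1 and Id3 varied less between libraries than the median gene of high level, and Id2 did not. The SD of log2(TPM + 1) was 0.20 for Id3, 0.21 for Id1 and 0.37 for Id2, beside a median of 0.36 over the 2083 genes averaging 50 TPM or more. Of those genes, 1054 averaged 100 TPM or more, as did Id1 and Id3 but not Id2. No class closer to the level of each Id gene was taken, so a part of level in this contrast was not tested. Among the receptors and SMADs the SD was 0.30 for Bmpr1a, 0.44 for Bmpr2, 0.44 for Smad4, 0.56 for Smad1, 0.70 for Smad5 and 0.79 for Acvr1, beside a median of 0.59 over the 4566 genes with a mean of 5 to 20 TPM. Of these 6 genes Bmpr1a had the smallest SD and Acvr1 the largest. Without read numbers, this spread cannot be divided into counting error and differences between mice.

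Id1 and Id2 went up and down together across the libraries. Both were highest in replicate 1 and lowest in replicate 3, with Pearson r = 0.935 (exact permutation p = 0.00417, adjusted p = 0.0125 over 3 relations) and Spearman rho = 0.943 (exact p = 0.0167, adjusted p = 0.05) over 6 libraries. Replicates 1 and 3 had the Id1 values most distant from its median, and without them r was 0.729 over 4 libraries. After values were centred within replicates 1 to 3 and 4 to 6, r was 0.968 (exact permutation p = 0.0833, adjusted p = 0.25). The adjusted p also rose above 0.05 under both rescalings between libraries, to 0.104 with r = 0.859 by median-of-ratios factors and to 0.125 with r = 0.865 without Rn45s and Gm20594. Id3 was not shown to follow either gene. Its Pearson r was 0.501 with Id1 (exact permutation p = 0.329, adjusted p = 0.329; rho = 0.371, exact p = 0.497, adjusted p = 0.497) and 0.551 with Id2 (exact permutation p = 0.268, adjusted p = 0.329; rho = 0.600, exact p = 0.242, adjusted p = 0.363). Without replicates 1 and 3 these r values were -0.640 and -0.0389, so that no positive relation was seen apart from those libraries, although leaving out the extremes of Id1 narrows the range and leaves 4 points. Centred within the sets, r was 0.496 for Id1 with Id3 and 0.465 for Id2 with Id3.

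The summed enterocyte markers were also highest in replicate 1 (16298 TPM) and lowest in replicate 3 (7757 TPM), and stood at 12468, 12151, 8353 and 9755 TPM in replicates 2, 4, 5 and 6. Fabp1 made up 50.6% (replicate 5) to 79.1% (replicate 2) of this sum and was itself lowest in replicate 5, and 6 of the 8 markers were highest in replicate 4 and 2 in replicate 1. Of the 13 tuft cell markers, 11 were highest in replicate 1. The summed leukocyte markers were likewise highest in replicate 1 (185.9 TPM) and lowest in replicate 3 (97.2 TPM). Their leading gene Ptprc held 170.85 TPM of the sum in replicate 1 and was itself lowest in replicate 6 (74.2 TPM). Every other leukocyte marker was highest in replicate 5 or 6. The part of any of these cell types in the levels of Id1 and Id2 was not tested. Fabp1, the most abundant enterocyte marker, had a mean of 7410 TPM.

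By pattern over the 6 libraries, the genes most like each of 4 pathway genes were taken from the 6986 genes averaging 10 TPM or more. Likeness was the root mean square difference in log2(TPM + 1) after each gene's own mean was subtracted. Nearest to Id1 were Hgfac (0.040), Mbd6 (0.042) and Ankrd13a (0.048). Nearest to Id2 were Tor1a (0.054), 4833420G17Rik (0.064) and Ctsd (0.089), and nearest to Id3 were Dbi (0.044), Cr1l (0.047) and Gtf3c1 (0.064). For Bmpr1a they were Ddx6 (0.044), Prr24 (0.057) and H2afy (0.061). These values describe 6 libraries and were not tested.

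The E protein genes, whose products Id proteins bind, were all expressed at lower levels than the 3 abundant Id genes. Tcf12 had a mean of 15.7 ± 2.20 TPM, Tcf3 of 12.3 ± 4.05 TPM and Tcf4 of 6.25 ± 2.26 TPM (SD, n = 6 each). The summed TPM of Id1, Id2 and Id3 was 747.5, 633.1, 494.9, 568.4, 550.0 and 576.3 in replicates 1 to 6, which was 14.2 to 26.3 times that of the 3 E protein genes in the same library (median 16.2). Replicate 1 had the highest ratio. Of the Id transcripts, Id3 made up 39.7% to 49.9%, Id1 37.5% to 44.6% and Id2 11.9% to 17.8%.

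Of 13 genes for secreted antagonists of BMPs, 7 were listed at 0 in every library, against 32.9% of all genes, among them Nog, which encodes noggin, and Grem1, which encodes an antagonist made by the crypt stroma. Only 2 were above 0 in every library, against 47.2% of all genes. Nbl1, which encodes a secreted protein of the DAN family, was at 23.5 to 36.65 TPM with a mean of 29.0 ± 5.54 TPM, and Twsg1, which encodes the chordin-binding protein twisted gastrulation, was at 3.57 to 20.3 TPM with a mean of 13.1 ± 6.77 TPM (SD, n = 6 each). Dand5 varied from 0 in replicates 3 and 4 to 13.85 TPM in replicate 5. Of the coreceptors and decoys, Rgmb, a BMP coreceptor gene, was the most abundant at 1.77 to 18.3 TPM, and the decoy receptor gene Bambi was at 1.16 to 4.67 TPM.

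Genes of the TGF-β and activin branch, which uses SMAD4 with other receptor SMADs, ranged from near 0 to the level of the BMP receptors. All 6 were above 0 in every library, and the highest was the activin type I receptor gene Acvr1b at 11.3 ± 4.91 TPM (SD, n = 6). Smad2 was at 7.22 to 11.8 TPM and Smad3 at 2.31 to 14.3 TPM. Tgfbr2 was lower, at 0.10 to 7.47 TPM, and Acvr1c was lowest, at 0.02 to 1.01 TPM. Over the whole list of 64 pathway genes, 36 were above 0 in every library (56.25%, against 47.2% of all genes), 16 had a mean of at least 10 TPM (25.0%, against 29.8%) and 16 were listed at 0 in every library (against 32.9%).

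In order of mean TPM the 10 genes ran Id3, Id1, Id2, Smad1, Bmpr2, Smad4, Acvr1, Bmpr1a, Smad5 and Bmp4. The difference between neighbors in log2(TPM + 1) was larger than its SD from Id1 to Id2 and from Id2 to Smad1 (2.38 ± 0.75), each held in 6 of 6 libraries. Smad5 was also above Bmp4 in 6 of 6 libraries, but with Bmp4 listed at 0 in 5 of them the size of that step is set by the pseudocount and is not given. Between Id3 and Id1 and along the steps from Smad1 down to Smad5 the difference was smaller than its SD, and the order was held in 3 to 5 of 6 libraries. Neighbors in this order are not the only comparison, since Bmpr2 was above Bmpr1a and Smad4 above Smad5 in 6 of 6 libraries.

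Promoter sequence was available for 8 of the 10 genes, from RefSeq on GRCm38.p6, and the 250 bases before each of their 10 annotated starts were searched on both strands for letters that SMAD proteins are known to bind. These were the GC-rich GGCGCC, which reads the same on both strands, and CAGAC, which reads GTCTG on the other. The motifs do not overlap in any of these windows. GGCGCC was found for 4 of the 8 genes, Bmpr1a, Bmpr2, Smad5 and Id2, and CAGAC for Id3 and Smad5. Counted by window, 4 of the 10 held GGCGCC and 2 held CAGAC, beside 9.59% and 42.2% of all 32851 windows of this length. Acvr1, Smad1 and Bmp4 held neither, and Id1 and Smad4 have no entry. The stretches around the matches in the Id genes, as the pathway's targets, are shown 5′ to 3′ on the strand of the gene, with the motif in capitals. The match before Id2 lies 231 bases upstream of its RefSeq start (chr12:25096306-25096335, minus strand) and inside the Id2 gene as annotated in GENCODE M21, between the exons of a longer transcript, whereas both matches before Id3, at 167 and 68 bases upstream (chr4:136143643-136143672 and chr4:136143742-136143771, plus strand), lie in the first exon of a longer Id3 transcript in the same annotation. A match of these letters is a description of the sequence and not evidence of binding.
Id2, before the RefSeq start: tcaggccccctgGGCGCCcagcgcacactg
Id3, before the RefSeq start, distal: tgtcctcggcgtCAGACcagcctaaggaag
Id3, before the RefSeq start, proximal: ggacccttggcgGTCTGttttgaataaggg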

How the data were processed

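Libraries were prepared from sorted ileal tuft cells of 6 mouse replicates by a modified SMART-Seq2 protocol (the labels also name a 3′ polyA and a droplet preparation) and sequenced in pairs of reads. Bowtie was used by the authors for alignment against mouse transcripts of UCSC mm10, and the TPM values they deposited were computed by RSEM, which divides reads of similar transcripts by estimated shares. The submitters' processing notes also name TopHat and DESeq2, neither of which was used here. Neither a strand setting nor a gene filter is stated there or in the methods. Because Rn45s took 23.1% to 32.6% of TPM, the remaining genes shared a smaller total, and not the same one in each library.

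Columns were matched to replicates by number, and no columns were left unmatched. Values were compared within a library as differences in log2(TPM + 1) by flipping their signs in all 64 ways (exact, two-sided), with Benjamini-Hochberg adjustment over 9 pairs, taken within the receptors, the SMADs and the Id genes. The study names the Mann-Whitney test, which ignores that both genes come from 1 library and was run as an alternative. Relations among the Id genes used all 720 pairings. P-values measure the spread between these libraries. The genes named were the 10 pathway genes, genes of the wider list with a mean of at least 10 TPM or leading their role, the 3 genes most like Bmpr1a, Id1, Id2 and Id3, and the marker genes that led each list or were listed at 0, apart from items not reported here. Bmp3, Bmp7, Acvrl1, Acvr2a, Acvr2b, Smad6, Smad9, Id4, Tcf4, Dand5, Bambi, Smad2, Smad3, Tgfbr2, Acvr1c, Pdgfrb, Chga, Chgb, Tph1, Cd52 and the genes listed at 0 were named after their values were seen. So were Col1a1, Col3a1, Pdgfra, Acta2, Cd3e, Cd3g, Cd8a, Itgae, Laptm5, Neurod1, Gcg, Cck, Pyy, Defa17, Defa21 and Defa22. The pathway genes and lists were chosen with earlier results of these data known. Positions come from GENCODE M21 on GRCm38, the assembly of mm10, although not the authors' gene models. The scaling factors, the likeness measure and the exact tests were tested on simulated data. Computations were run in Python 3.11.15 (scipy 1.17.1, pandas 2.3.3, numpy 2.4.6), and plots were drawn in matplotlib 3.10.9.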

Additional observations from a re-analysis of the deposited data

Results flagged for a closer look

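The gap between an extreme library and its neighbor, as a share of the whole range, was above Dixon's critical value for 6 libraries in 4 of the 39 measures examined. For independent measures with normally distributed values, chance would place about 1 in 20 there, or 1.95 of 39. The measures here share genes and include untransformed TPM, so that number is only a rough guide. Bmp4 was listed at 0.09 TPM in replicate 6 and at 0 in the other 5 libraries. With 5 values tied at 0 the ratio is 1 whatever the other value, so this case says nothing and belongs outside the comparison with chance. Smad7 was at 7.79 TPM in replicate 4 and at most 3.51 TPM elsewhere (ratio 0.866). Smad1 minus Smad5 was -0.47 on the log2(TPM + 1) scale in replicate 5 and at least 1.31 in the others (ratio 0.724). The summed fibroblast and smooth muscle markers reached 64.5 TPM in replicate 5 and at most 6.03 TPM elsewhere (ratio 0.917), and replicate 5 is also the library that stood apart for Smad1 minus Smad5. Of that sum, 59.4 TPM came from Dcn. Col1a1 (1.51 TPM), Col3a1 (1.01 TPM), Acta2 (0.25 TPM) and Pdgfra (0.03 TPM) were, like Dcn, above 0 only in replicate 5. Pdgfrb was highest in replicate 1 (6.03 TPM), and Col1a2 and Lum were listed at 0 throughout. Other single markers were also highest in replicate 5, among them Chga (40.4 against at most 6.41 TPM), Chgb (59.6 against 13.8 TPM) and Tph1 (11.03 against 0.91 TPM) of enteroendocrine cells and Cd52 (39.2 against 12.05 TPM) of leukocytes. The leukocyte markers Cd3g (13.12 TPM), Cd8a (8.42 TPM) and Laptm5 (6.65 TPM) were highest in replicate 5 as well, whereas Cd3e and Itgae were highest in replicate 6. Of the enteroendocrine markers, Neurod1, Gcg and Cck were highest in replicate 3 and Pyy in replicate 2. The sums of both lists were highest in other libraries, where the leading gene made up most of the sum. The enteroendocrine sum was highest in replicate 2 (535.4 TPM, against 485.1 TPM in replicate 5), as was its leading gene Sct (473.65 against 358.2 TPM). The leukocyte sum was highest in replicate 1 (185.9 TPM, against 148.1 TPM in replicate 5), as was its leading gene Ptprc (170.85 against 77.4 TPM). The part of any of these cells in the difference was not tested.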

How the results depend on the processing

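None of the 9 comparisons between genes changed direction under the pseudocounts of 0.1 and 0.01 or either rescaling. The filter at 0.1 TPM touched no value in these pairs and the exact Mann-Whitney test keeps the same mean difference, so neither bears on direction. Rescaling multiplies every gene of a library by the same factor, so it moves such differences only through the pseudocount. By adjusted p, the sign-flip test passed 0.05 for 0 of 9 pairs under the settings tried and for 4 of 9 before adjustment, whereas the exact Mann-Whitney test, which by construction ignores the library a value came from, passed 5 of 9 both before and after adjustment. These were Bmpr1a minus Bmpr2 (-0.58, adjusted p = 0.0468), Smad1 minus Smad5 (1.36, adjusted p = 0.0130), Smad4 minus Smad5 (1.05, adjusted p = 0.0195), Id1 minus Id2 (1.42, adjusted p = 0.00974) and Id2 minus Id3 (-1.58, adjusted p = 0.00974). Each library was also left out in turn, and replicates 1 to 3 and 4 to 6 were taken apart, an alternative chosen after the data were seen. With 6 libraries neither step can move a mean difference by as much as its SD, so a shift within the SD says nothing. Bmpr1a minus Acvr1 changed sign without replicate 1 or 2 and between sets. Bmpr2 minus Acvr1 changed sign between sets through replicate 1. The other differences kept their direction, and 5 libraries allow no exact p below 0.063. The correlation of Id1 with Id2 lost its call at r = 0.859 by median-of-ratios rescaling, 0.865 without Rn45s and Gm20594 and 0.968 when centred within sets, where only 36 pairings exist; the cause was not tested for the rescalings. Without the 2 farthest libraries, r was -0.64 for Id1 with Id3 and, near 0, -0.0389 for Id2 with Id3. Rescaling without Rn45s and Gm20594, which raises every value, moved 7 of 10 means by more than 1 SD (Id1 to 347.6 TPM, Bmpr1a to 13.9 TPM), and median-of-ratios rescaling moved 0 of 10. No paired analysis of groups was possible because the 6 libraries form 1 group. TPM keeps no depth, so the zeros of Bmp4 and the other genes listed at 0 have no limit.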
